A study of Mus musculus with 6 samples.

Results

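Glycolysis, lactate and hypoxia genes form a set of 33 genes out of 52999 gene symbols in the files. They were chosen by symbol from textbook roles, with earlier results of these data known. They cover the enzymes from hexokinase to lactate dehydrogenase, the carriers of lactate and glucose, the kinases that switch glycolysis and pyruvate oxidation up or down, and 3 genes of the response to low oxygen. All 33 members were found, in 277 transcripts, and each of them was abundant enough to be tested.

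The tissue was the part of the left sciatic nerve that remained joined to its ganglia, the proximal stump, taken 24 h after transection at mid-thigh (axotomy), and its poly-A RNA was sequenced. The groups were female and male C57BL/6 mice (C57BL6/J in the husbandry notes) of 6 to 8 weeks with no transgene or other allele named, and both had the same surgery. There were 3 libraries of each sex, each a pool of nerves from 2 mice, so the spread between libraries is a spread between pools. Uninjured nerves were not analysed here, and each difference below is one between the sexes after injury. The question was which members differ between female and male stumps.

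Glycolysis splits glucose into pyruvate in the cytosol. Lactate dehydrogenase converts pyruvate to lactate and back, monocarboxylate transporters move lactate across membranes, and pyruvate dehydrogenase kinases (PDK) keep pyruvate out of mitochondrial oxidation. Hif1a encodes the oxygen-sensitive transcription factor that drives many of these genes when oxygen is low. In peripheral nerve, Schwann cells, the glia that wrap axons, are known to use glycolysis and to pass lactate to axons.

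Of the 33 members, 4 were higher in males and 0 were higher in females at an adjusted p under 0.1, by the edgeR quasi-likelihood test with Benjamini-Hochberg adjustment over all 18396 genes tested. Among all genes tested, 975 (5.3%) passed that threshold, 706 (3.84%) higher in males and 269 (1.46%) higher in females. An unadjusted p under 0.05 was reached by 7 members against 20.7% of all genes. The DESeq2 Wald test called 4 members higher in males and 1 higher in females. The 5.3% is the share of edgeR alone, and DESeq2 gave smaller adjusted p values for the 4 members that edgeR called (for Ldhb 1.67e-05 against 0.0441). The called members were Aldoc, Ldhb, Eno2 and Pdk2, of which the first 3 encode the less abundant form of their enzyme and Pdk2 encodes 1 of 4 kinases. The 6 most abundant members were not called. The log2 fold change was above 0 in 11 members and below 0 in 22, with a median of -0.21 beside -0.026 over all genes tested. The CPM (counts scaled to the normalised library size) did not overlap between the sexes in 7 members, 5 higher in males and 2 higher in females, where 25.5% of all genes tested did not overlap (13.9% and 11.6%). The share of members without overlap was thus near that of all genes.

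**Figure D1:**
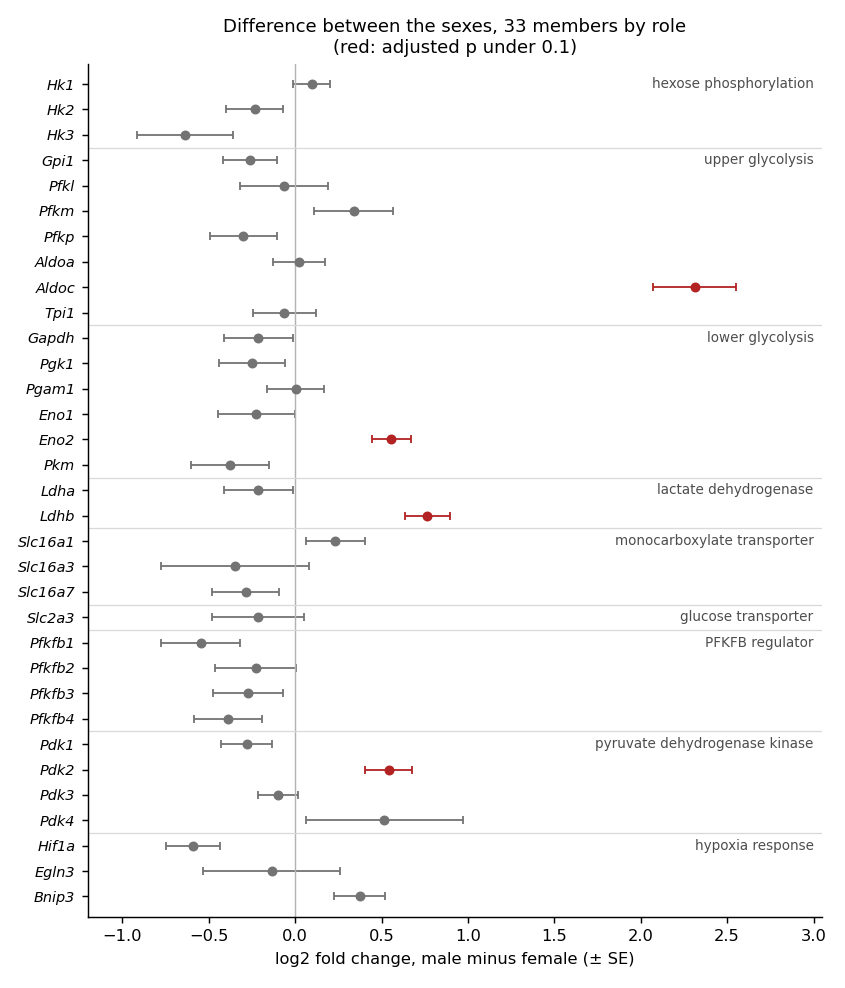
Log2 fold change of each member, male minus female, on the horizontal axis, with bars for the SE (n = 3 libraries per sex) and members grouped by role. The 4 red points, Aldoc, Eno2, Ldhb and Pdk2, passed an adjusted p of 0.1 in the edgeR test, and Aldoc stands at 2.31 while every other member lies between -0.64 and 0.77.

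The libraries held 49158283 to 69848769 estimated counts. Xist, the X-linked RNA of female cells, had 26310 to 40851 counts in the female libraries and 6 to 193 in the male ones, and the Y-linked gene Ddx3y had 0 counts in females 1 and 2, 139 in female 3 and 2268 to 3743 in males, so female 3 held a low level of Y-linked RNA. The Y-linked gene Kdm5d had counts in each female library, 43, 51 and 83 in females 1, 2 and 3, beside 944 to 1209 in males. Uty had 18, 37 and 79 counts in females and 448 to 784 in males. Without female 3 the same number of members, 4, was called higher in males. Skeletal muscle genes (20 genes, 19 tested, led by Acta1) reached a sum of 492, 721 and 65.2 TPM in females 1, 2 and 3 and of 55.7, 43.9 and 919 TPM in males 1, 2 and 3, where TPM is a level per transcript length, scaled to an equal total per library. Not every gene of this list followed the sum, as 1 was called higher in males and 4 (Myh4, Mybpc2, Actn3 and Pvalb) higher in females. Each of these 4 was highest in female 1. Myh4 had 103, 74.6 and 8.84 CPM in females and 0.861, 0.0886 and 0 CPM in males. Adipocyte genes (14 genes, led by Fabp4) summed to 1894, 1183 and 339 TPM in females and 340, 851 and 545 TPM in males. Myelinating Schwann cell genes (12 genes) summed to 12905 to 16303 TPM in females and 26216 to 31478 TPM in males, with 8 of 12 called higher in males. Fewer cells of a type and less RNA per cell cannot be told apart in such bulk samples.

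Hexokinases, which trap glucose in the cell by adding a phosphate, were not called. Hk1 had 115, 104 and 108 CPM in females 1, 2 and 3 and 128, 105 and 117 CPM in males 1, 2 and 3, so the groups overlapped. Hk3, the hexokinase of myeloid cells, had 48.5, 35.5 and 32.02 CPM in females and 22.5, 35.4 and 16.7 CPM in males. Its log2 fold change was -0.64 ± 0.28 (SE, n = 3 per sex) with an adjusted p of 0.248, and male 2 stood beside female 2 rather than with the other males. Neutrophil genes summed to 2608, 961 and 3066 TPM in females and 1678, 2721 and 828 TPM in males, and macrophage genes to 1777, 1463 and 960 TPM and to 917, 1504 and 1026 TPM. Males 1 and 3 thus held less of the neutrophil list than male 2. Among females the neutrophil list was highest in female 3, where Hk3 was lowest. The part of these cells in the Hk3 values was not tested. Slc2a3, a glucose transporter of neurons and blood cells, was low at 3.43 to 8.64 TPM and its groups overlapped.

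The enzymes of the middle of the pathway, from Gpi1 to Ldha, were the abundant members. Gapdh, which makes the first reduced cofactor of the pathway, had the highest level of the set at 1152 to 1914 TPM, followed by Aldoa (808 to 961 TPM), Ldha (406 to 692 TPM), Pkm (335 to 668 TPM), Eno1 (349 to 594 TPM) and Pgk1 (249 to 456 TPM). None of these 6 was called, and their ranges overlapped between the sexes. The 33 members together held 6892, 5249 and 5379 TPM in females 1, 2 and 3, while males 1, 2 and 3 held 6150, 5582 and 4783 TPM, so the spread within a sex was larger than the difference of the means (5840 ± 914 against 5505 ± 687, SD, n = 3).

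The order of the libraries was shared by these enzymes. In Gapdh the CPM was 1905, 1284 and 1545 in females and 1532, 1402 and 1146 in males. Pkm, the last enzyme of glycolysis, gave 1246, 805 and 986 CPM in females and 917, 837 and 587 CPM in males. Female 1 was the highest library and male 3 the lowest for both. Over the 9 genes Gpi1, Aldoa, Tpi1, Gapdh, Pgk1, Pgam1, Eno1, Pkm and Ldha, a group picked after its values were seen, female 1 was highest in 7 and male 3 was lowest in 8. Male 1 was highest in the other 2, Aldoa and Pgam1, and Aldoa was lowest in female 2. Over all 33 members female 1 was highest in 18 and male 3 lowest in 16. The log2 fold changes of the 9 genes lay between -0.38 and 0.02, with SE of 0.15 to 0.23. The summed TPM of the skeletal muscle list was highest in male 3, the library where 8 of the 9 were lowest, and cell-cycle genes summed to 86.1 TPM in female 1 and to 33.9 to 69.4 TPM in the other 5 libraries. The part of either in this order was not tested.

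**Figure D2:**
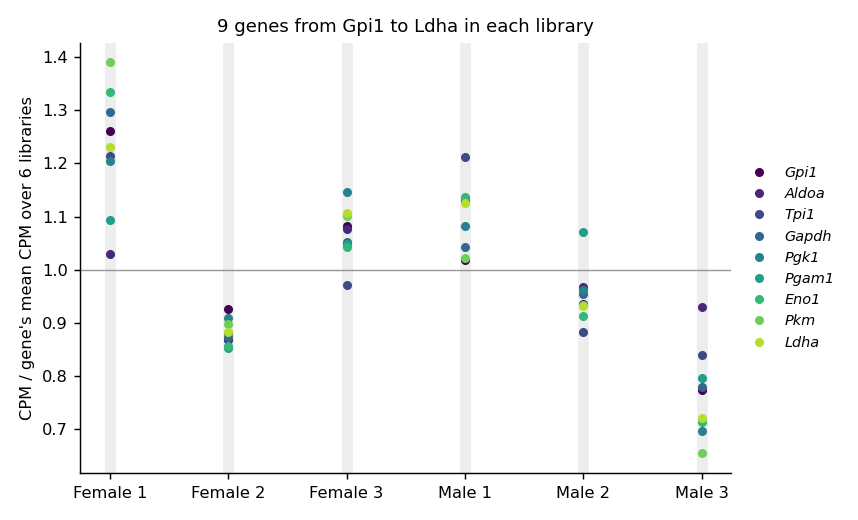
CPM of 9 glycolytic genes divided by each gene's mean over the 6 libraries (vertical axis, no unit), 1 column of points per library. Female 1 holds the highest value for 7 of the 9 genes and male 3 the lowest for 8, while female 2 and male 2 lie near each other.

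Several of these enzymes have near-identical processed copies in the genome, Gapdh above all, and Salmon splits reads that match both, so their levels carry that uncertainty. The symbol Aldoa covered 2 gene identifiers in the files, ENSMUSG00000030695.17 and ENSMUSG00000114515.3, which were summed.

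Aldoc, the brain form of aldolase, which is known from astrocytes, Purkinje cells and other neurons, differed most among the members. It had 2.27, 2.84 and 2.97 CPM in females and 9.27, 15.0 and 15.9 CPM in males, that is 116 to 187 estimated counts per library against 625 to 846. The groups did not overlap. The log2 fold change was 2.31 ± 0.24 (4.97-fold) with an adjusted p of 0.0319. Aldoc (GRCm39 chr11:78213619-78218889, plus strand) made up 0.151%, 0.251% and 0.229% of aldolase TPM in females and 0.636%, 1.20% and 1.35% in males. The rest was Aldoa, the ubiquitous form, with a log2 fold change of 0.02 ± 0.15 (adjusted p 0.944) that turned to -0.02 when scaled by library size alone.

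Ldhb, the subunit that favours turning lactate back into pyruvate and that dominates in oxidative tissue, was the abundant member among those called. Its level was 158, 196 and 179 CPM in females and 297, 272 and 336 CPM in males, with no overlap. The difference was 0.77 ± 0.13 on the log2 scale (1.70-fold, adjusted p 0.0441). Ldha, the subunit that favours making lactate, had 724, 519 and 651 CPM in females and 662, 548 and 424 CPM in males, which overlapped (-0.21 ± 0.20, adjusted p 0.584). Ldhb (GRCm39 chr6:142435672-142454586, minus strand) therefore held 19.7%, 30.4% and 24.8% of lactate dehydrogenase TPM in females and 34.7%, 37.4% and 48.5% in males. In male 3 the subunits were nearly equal, with Ldha at 51.5%, whereas Ldha held 80.3% in female 1.

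Eno2, the enolase of neurons, had 22.8, 26.1 and 27.8 CPM in females and 34.98, 38.8 and 39.2 CPM in males. The log2 fold change was 0.56 ± 0.11 (1.47-fold, adjusted p 0.0595), and the groups did not overlap. The call was lost with the transcript length offset (adjusted p 0.108) and with a score of the muscle list (adjusted p 0.127) or of the adipocyte list (adjusted p 0.184) as a covariate. The difference itself was 0.50 ± 0.14, 0.55 ± 0.14 and 0.52 ± 0.14 in these 3 fits. Eno2 made up 2.55% to 4.72% of the summed TPM of Eno1 and Eno2 in females and 4.19% to 6.59% in males. These shares did overlap, since Eno1 was itself low in female 2 and high in male 1. Eno3, an enolase gene outside the set at 8.33 to 23.4 TPM, was left out of this sum. Eno2 lies at GRCm39 chr6:124736247-124746636 on the minus strand.

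Aldoc and Eno2 are genes that neurons and astrocytes are known for. Of the neuron markers tested, 16 had a log2 fold change above 0 and 1 below 0. The astrocyte markers were split, with 5 above 0 and 4 below 0. Neuron genes summed to 83.9, 77.2 and 90.3 TPM in females and 102, 120 and 141 TPM in males, with 11 of 17 tested called higher in males. Of the axonal and ganglion genes among them, Tubb3, Stmn2 and Prph were not called and the neurofilament genes Nefl (1.38, adjusted p 0.0571), Nefm (1.24, adjusted p 0.0880) and Nefh (0.999, adjusted p 0.0752) were called higher in males. Snap25, of the synaptic vesicle machinery, stood at 4.11 to 6.17 TPM in females and 11.0 to 22.3 TPM in males. Astrocyte genes summed to 156 to 196 TPM in females and 166 to 206 TPM in males, and 4 of 9 were called higher in males, but Gfap, at 12.0 to 18.9 TPM, and Gja1 were not. Oligodendrocyte genes had 4 of 8 called higher in males, among them Mobp, at 0.267 to 0.491 TPM in females and 3.22 to 10.4 TPM in males. Males 2 and 3 held more Mobp, more Snap25 and more Aldoc than male 1. The summed oligodendrocyte list did not follow that order, at 942, 736 and 916 TPM in males 1, 2 and 3. Nor did the astrocyte list, at 196, 166 and 206 TPM. None of these markers was at 0 counts in all libraries, and their part in the Aldoc and Eno2 values was not tested.

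**Figure D3:**
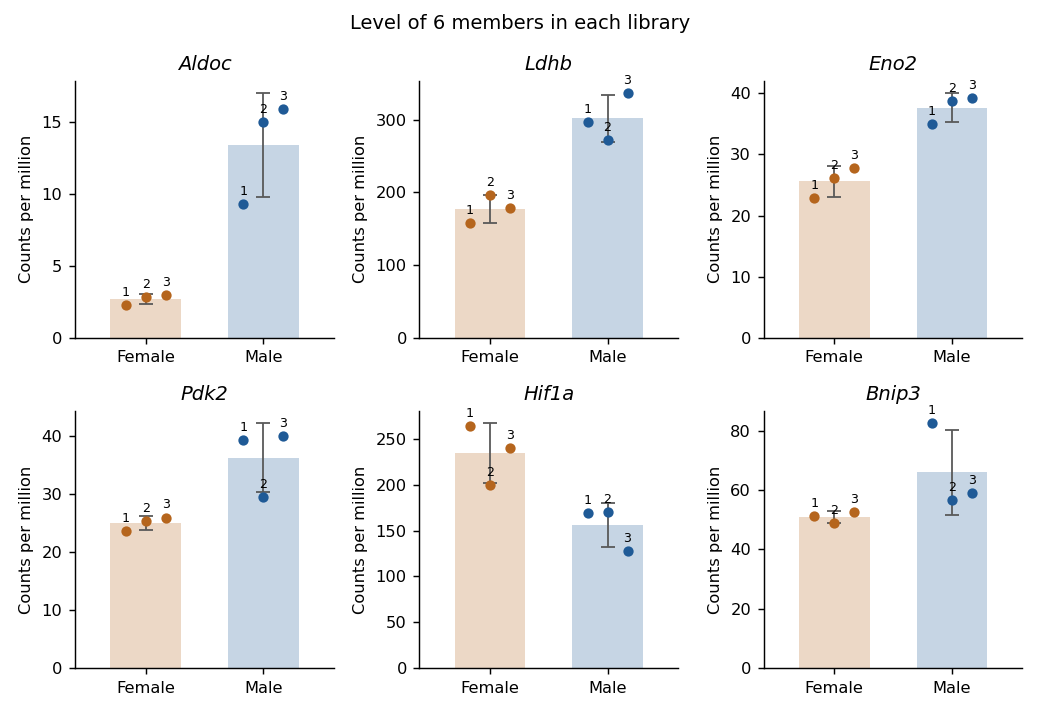
CPM of 6 members in each library (vertical axis from 0), with the replicate number over each point, bars for the mean and lines for the SD (n = 3). Aldoc, Ldhb, Eno2 and Pdk2 passed the test, with every male point above every female point, while Hif1a, lower in each male library, and Bnip3, with male 1 far above the others at 82.5 CPM, did not pass.

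Phosphofructokinase commits sugar to glycolysis. Its 3 genes were not called, and Pfkm, the muscle form, was highest in male 3 and female 2, as the summed TPM of the muscle list was. It had 38.0, 46.4 and 29.03 CPM in females and 45.3, 36.3 and 61.9 CPM in males. Pfkl, the liver form, lay between 47.7 and 98.6 CPM and Pfkp, the platelet form, between 43.4 and 80.5 CPM, with overlap. Pfkfb1 to Pfkfb4 encode the enzymes that make and break the activator of phosphofructokinase. All 4 had log2 fold changes below 0 (-0.23 to -0.55), and none was called. Pfkfb2 turned to 0.11 with the muscle or the adipocyte covariate and was called without female 3 (-0.47, adjusted p 0.0873), and Pfkfb4 was called without male 2 (-0.61, adjusted p 0.0993) and with protein-coding transcripts alone (-0.90, adjusted p 0.0687). Pfkfb1, the liver and muscle form, had 3.65, 2.91 and 2.27 CPM in females and 1.84, 2.07 and 2.13 CPM in males, which did not overlap (-0.55 ± 0.23, adjusted p 0.233). Pfkfb2 lay between 9.81 and 18.6 CPM and Pfkfb3, the strongly glycolytic form, between 28.2 and 57.0 CPM. Summed over all its transcripts, Pfkfb4 took the largest share of the 4 in each library, 43.4% to 56.9% of their TPM. Much of this was Pfkfb4-205, annotated as a processed transcript and not as protein-coding. It held 43.3% to 59.7% of Pfkfb4 TPM in females and 62.2% to 73.1% in males.

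The monocarboxylate transporters were not called. Slc16a1, the carrier through which glia release and take up lactate, had 127, 153 and 174 CPM in females and 211, 145 and 178 CPM in males. Slc16a3, the carrier of strongly glycolytic cells, spread widely within each sex, with 99.1, 46.8 and 70.7 CPM in females and 86.9, 58.0 and 25.2 CPM in males. Slc16a7, a high-affinity carrier, stayed at 5.40 to 8.50 CPM. Slc16a3 led the 3 carriers in female 1, at 55.2% of their TPM, and Slc16a1 led in the other 5 libraries, with Slc16a3 lowest in male 3 at 18.1%.

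Among the PDK genes, 1 was called and 2 had shares that did not overlap between the sexes. Pdk2, the widely expressed kinase, had 23.5, 25.3 and 25.9 CPM in females and 39.3, 29.5 and 39.9 CPM in males, with a log2 fold change of 0.54 ± 0.14 (1.45-fold, adjusted p 0.0955). That call was lost with library size alone (adjusted p 0.111), voom (adjusted p 0.107), and the muscle (adjusted p 0.138) or adipocyte covariate (adjusted p 0.315). The difference itself was 0.61 ± 0.16 with the muscle covariate and 0.44 ± 0.16 with the adipocyte covariate. Pdk1, the kinase induced by low oxygen, had 43.4, 42.3 and 36.7 CPM and 37.6, 26.7 and 36.4 CPM (-0.28 ± 0.15, adjusted p 0.325). Pdk2 held 22.9% to 27.1% of PDK TPM in females and 34.2% to 35.1% in males, and Pdk1 held 22.4% to 30.9% and 16.2% to 19.2%. Pdk3 overlapped between the sexes at 22.3 to 27.9 CPM. Pdk4, the form raised in fasting and in muscle, spread widely within males, with 22.9, 10.6 and 39.6 CPM beside 12.9, 24.4 and 13.8 CPM in females. It was highest in male 3 and female 2, the libraries with the highest summed TPM of the muscle list, though not of each gene in it.

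The shares of the isozymes were compared in 8 families with 23 genes. All of these are members, so forms outside the set, such as Eno3, were not counted. In 7 of the 23 the shares did not overlap between the sexes, namely Hk3, Aldoa, Aldoc, Ldha, Ldhb, Pdk1 and Pdk2, and shares within a family depend on each other. They count every transcript of a gene, protein-coding or not. Hk2-202, a processed transcript, held 0% to 65.1% of Hk2 TPM in females and 66.8% to 73.5% in males, and so enters the Hk3 share. No such share was computed over all gene families. The CPM did not overlap in 25.5% of all genes tested. Transcript shares did not overlap in 19.1% of transcripts with a mean share of 5% to 95%, in genes with a mean of at least 1 TPM. The exact two-sided permutation test gave p = 0.10 for each of the 7, the smallest p that 3 against 3 allows, and 0.329 after adjustment over the 23 shares. Myelinating Schwann cell genes had a higher summed TPM in each male library, as the Ldhb and Pdk2 shares had. Within each sex that sum was highest in female 2 and male 3. These 2 libraries had the highest Ldhb share of their sex (30.4% and 48.5%) but the lowest Pdk2 share (22.9% and 34.2%). They also had the highest skeletal muscle sum of their sex (721 and 919 TPM), while males 1 and 2 held 55.7 and 43.9 TPM. The part of the Schwann cell or muscle genes in these shares was not tested.

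**Figure D4:**
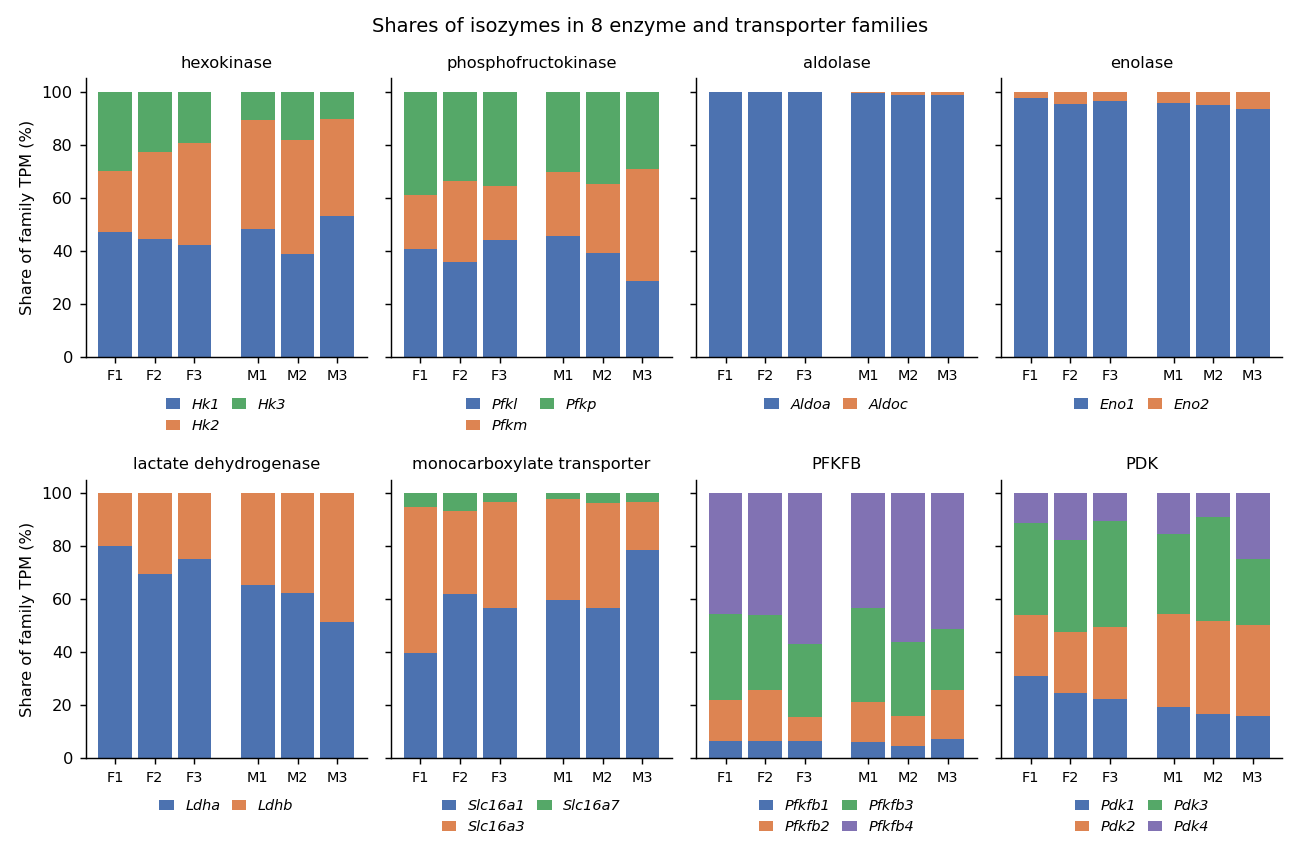
Share of each gene, all its transcripts counted, in the summed TPM of the members of its family (percent, stacked to 100), for females 1 to 3 (F1 to F3) and males 1 to 3 (M1 to M3). Ldhb takes 19.7% to 30.4% in females and 34.7% to 48.5% in males, Pdk2 22.9% to 27.1% and 34.2% to 35.1%, and the hexokinase Hk3 19.4% to 30.1% and 10.4% to 18.4%.

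Pkm mRNA has 2 forms that differ by a swapped exon of 167 bases, of which the M1 form is known from muscle and neurons and the M2 form from proliferating and glycolytic cells. The exons are shown because transcripts were put in a form by the exon they hold. Both are on the plus strand of chromosome 9 (GRCm39), M1 at chr9:59582312-59582478 in transcript Pkm-202 and M2 at chr9:59582851-59583017 in Pkm-201. They differ at 64 of 167 positions (61.7% identity), and capitals mark the bases that differ.
Pkm M1 exon: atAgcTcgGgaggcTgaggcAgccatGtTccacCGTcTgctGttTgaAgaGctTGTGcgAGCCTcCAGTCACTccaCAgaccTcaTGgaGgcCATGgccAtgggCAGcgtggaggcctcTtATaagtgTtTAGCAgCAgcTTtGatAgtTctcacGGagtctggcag
Pkm M2 exon: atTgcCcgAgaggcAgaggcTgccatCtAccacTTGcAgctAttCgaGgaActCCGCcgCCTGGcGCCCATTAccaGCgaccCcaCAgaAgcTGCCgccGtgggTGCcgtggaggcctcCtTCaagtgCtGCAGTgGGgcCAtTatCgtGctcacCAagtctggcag
The M2 form had 567, 398 and 445 TPM in females and 458, 455 and 300.0 TPM in males, and the M1 form 60.9, 41.5 and 34.9 TPM and 31.3, 25.6 and 29.2 TPM. M1 was thus 9.69%, 9.45% and 7.27% of the 2 forms in females and 6.40%, 5.32% and 8.87% in males. The means, 8.80% ± 1.33 and 6.86% ± 1.82 (SD, n = 3), did not differ beyond the spread (exact two-sided permutation test, p = 0.20), and male 3, with the highest summed TPM of the muscle list, was the highest male. The 9 other Pkm transcripts held neither exon.

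Within single genes, 64 transcripts of 22 members held a mean share between 5% and 95% of the gene's TPM. In 20 of the 64 the shares did not overlap between the sexes. The same held for 19.1% of 29503 transcripts with such a mean share, in genes with a mean of at least 1 TPM and above 0 in each library. The exact two-sided permutation p of each of the 20 was again 0.10 (0.32 adjusted over the 64). Eno2-201, a protein-coding transcript of 2795 bases, held 22.3%, 25.0% and 21.0% of Eno2 TPM in females and 43.9%, 44.8% and 45.2% in males. This gap between the sexes was wide beside the spread within each. Eno2-203, a transcript with a retained intron, held 19.8% to 30.5% in females and 16.8% to 25.5% in males. With protein-coding transcripts alone the Eno2 difference was 0.90 (adjusted p 0.0455), an alternative added after the data were seen.

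Other transcript shares spread widely among the female libraries. Hk2-202, a processed transcript of 594 bases, held 0%, 49.3% and 65.1% of Hk2 TPM in females and 68.1%, 73.5% and 66.8% in males. Summed over its transcripts, Hk2 had a lower mean in males in CPM (59.8 ± 10.7 in females, 50.8 ± 8.2 in males, SD, n = 3) and a higher one in TPM (23.0 ± 5.7 and 33.6 ± 6.7). Its log2 fold change was -0.24 ± 0.16 (adjusted p 0.448) on counts and 0.56 with the transcript length offset, so its direction depends on the scale. Hk3-208 held 1.9%, 7.90% and 37.9% of Hk3 TPM in females and 54.7%, 64.2% and 61.6% in males. Slc16a3-207, of 974 bases, held 42.5%, 23.2% and 10.8% and then 3.26%, 0.38% and 5.58%. Gpi1-204, a retained-intron transcript of 419 bases, held 23.6%, 9.60% and 0.28% in females and 0% in each male library. In these 4 genes female 3, the female library with the most Y-linked RNA, was the female library nearest to the males, and whether the 2 facts are linked was not tested.

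**Figure D5:**
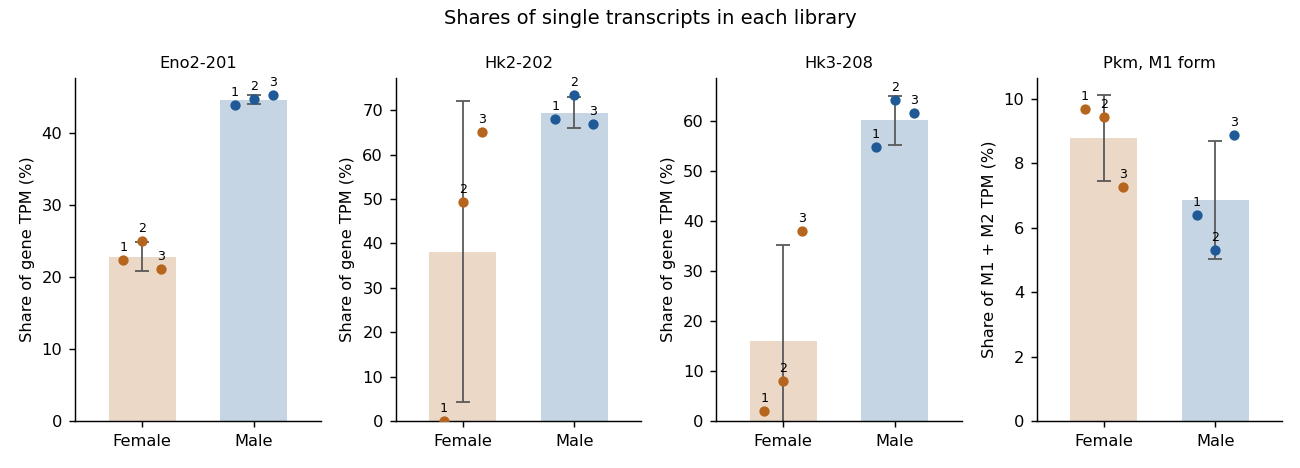
Share of a transcript in its gene's TPM (percent) in each library, with replicate numbers, bars for the mean and lines for the SD (n = 3; cut at 0). Eno2-201 is tight in both sexes, Hk2-202 and Hk3-208 spread from 0% to 65.1% and from 1.9% to 37.9% among females, and the M1 share of Pkm overlaps between the sexes.

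Of the hypoxia members, Hif1a stood below every female library in every male one. It had 264, 200 and 240.0 CPM in females and 169, 170 and 128 CPM in males, with no overlap, a log2 fold change of -0.59 ± 0.16 and an adjusted p of 0.103, which missed the threshold. DESeq2 put the adjusted p of the same difference at 0.0114. Bnip3, a mitochondrial protein induced by Hif1a that marks mitochondria for removal, went the other way, with 51.3, 48.95 and 52.8 CPM in females and 82.5, 56.6 and 59.0 CPM in males (0.37 ± 0.15, adjusted p 0.217). Egln3, an oxygen sensor whose gene is itself a Hif1a target, spread from 7.94 to 24.1 CPM among males and from 12.3 to 17.0 CPM among females.

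The complex that Hif1a forms binds the letters ACGTG or GCGTG, so promoters were searched for either, on both strands, in the 250 bases before the RefSeq starts. RefSeq windows were given for 31 members, and 28 of them (90.3%) held a match in some window, beside 11226 of 27025 genes (41.5%). Counted by window, 38 of 50 (76%) of the members' windows held one and 38.6% of all 32851 windows. Members were picked for roles that Hif1a is known to control, so this count describes them and bears on no sex difference. Eno2, Gpi1 and Tpi1 had no match in the window. Of the 4 members called, 3 had a match and 1, Eno2, had none. The promoters below are those with the most matches, 5 in a window (Bnip3, Ldha), and those of called members with at least 150 bases free of annotated untranslated sequence (Eno2, Pdk2), cut to the free stretch. CACGTG reads the same on both strands and counts as 2 matches. Matches stand in capitals.
Bnip3 (GRCm39 chr7:138511254-138511485, minus strand): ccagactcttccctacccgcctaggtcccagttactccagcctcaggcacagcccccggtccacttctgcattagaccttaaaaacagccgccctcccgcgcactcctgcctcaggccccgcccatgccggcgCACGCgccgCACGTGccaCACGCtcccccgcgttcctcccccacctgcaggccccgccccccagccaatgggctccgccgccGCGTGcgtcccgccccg
Ldha (GRCm39 chr7:46494978-46495131, plus strand): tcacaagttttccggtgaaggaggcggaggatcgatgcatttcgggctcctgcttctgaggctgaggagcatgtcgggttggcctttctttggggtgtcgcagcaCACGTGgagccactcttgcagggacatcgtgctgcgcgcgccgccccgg
Pdk2 (GRCm39 chr11:94932243-94932447, minus strand): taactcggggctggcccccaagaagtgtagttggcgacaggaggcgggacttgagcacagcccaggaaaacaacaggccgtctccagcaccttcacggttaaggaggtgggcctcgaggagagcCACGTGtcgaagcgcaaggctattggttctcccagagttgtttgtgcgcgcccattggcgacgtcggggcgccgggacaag
Eno2 (GRCm39 chr6:124746637-124746825, minus strand): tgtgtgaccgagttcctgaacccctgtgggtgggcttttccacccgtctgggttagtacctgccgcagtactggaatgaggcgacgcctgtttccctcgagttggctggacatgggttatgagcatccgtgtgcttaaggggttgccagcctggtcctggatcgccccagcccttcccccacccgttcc
The Bnip3 stretch of 232 bases held all 5 matches of its window, the Ldha stretch of 154 bases 2 of 5, and the Pdk2 stretch of 205 bases 2. The Pdk2 and Ldha stretches each held a CACGTG, and the relation of matches to the sex values was not tested.

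Outside the set, 91 further genes of the pathway were read from 4 lists. Of the 31 tested among 41 other genes of glycolysis and lactate, 0 were called in edgeR, and 6 had an unadjusted p under 0.05. Their median log2 fold change was -0.26. The smallest p was that of Pgm2, a phosphoglucomutase at the entry of glycogen sugars, with 33.9, 23.7 and 26.6 CPM in females and 18.9, 20.05 and 17.1 CPM in males (-0.59 ± 0.15, adjusted p 0.101), followed by Emb, the partner that carries lactate transporters to the membrane (-0.72 ± 0.23, adjusted p 0.152) and the glucose transporter Slc2a8 (0.34 ± 0.12, adjusted p 0.180). Of 11 genes that bring pyruvate into mitochondria, 0 were called and 3 had an unadjusted p under 0.05. These were Pcx, which makes oxaloacetate from pyruvate (0.34 ± 0.12), Dlat, a subunit of pyruvate dehydrogenase (-0.22 ± 0.09), and Pdpr, a regulator of its phosphatase (-0.87 ± 0.36). The DESeq2 Wald test called 4 of the 91 genes higher in males and 3 higher in females, where edgeR called 2 and 0. DESeq2 gave smaller adjusted p values for both genes that edgeR called (Ndrg1 2.2e-05 against 0.0646, Egln1 0.00956 against 0.0898). Its share over all genes is not given here, so its counts cannot be set beside the edgeR shares.

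Oxygen sensing and hypoxia-induced genes each held 1 call, both higher in males. Egln1, the main enzyme that marks Hif1a for destruction when oxygen is present, had 99.0, 124 and 132 CPM in females and 188, 156 and 178 CPM in males (0.56 ± 0.14, 1.47-fold, adjusted p 0.0898), 1 of 13 genes of oxygen sensing. The Egln1 call was lost with the muscle covariate (0.53 ± 0.17, adjusted p 0.195). The same list held Arnt2, a partner of Hif1a (0.44 ± 0.13, adjusted p 0.132), Vhl, which targets Hif1a for degradation (0.35 ± 0.13, adjusted p 0.195), and Cited2, which competes with it (-0.28 ± 0.12, adjusted p 0.239). Ndrg1, induced by low oxygen and a myelination gene of Schwann cells, had 1033, 1371 and 1387 CPM in females and 2386, 2077 and 2926 CPM in males (0.96 ± 0.20, 1.95-fold, adjusted p 0.0646), 1 of 26 hypoxia-induced genes. It moved with the myelinating Schwann cell list, and the part of that list was not tested. Mxi1 (0.47 ± 0.15, adjusted p 0.136), Bnip3l (0.45 ± 0.17, adjusted p 0.184) and Loxl2 (-0.42 ± 0.17, adjusted p 0.207) of this list were not called. The median log2 fold change was 0.07 over the oxygen sensing genes and 0.04 over the hypoxia-induced ones.

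The calls changed with the libraries kept. Without female 1 or without male 3, 0 members were called, and without female 2 there were 2 calls. In the first pair of fits the Aldoc difference was 2.20 and 2.17 (adjusted p 0.145 and 0.1055), the Ldhb difference 0.69 and 0.68 (adjusted p 0.176 and 0.174) and that of Hif1a -0.50 and -0.47 (adjusted p 0.305 and 0.308). The unadjusted edgeR p of Aldoc was 1.2e-04 and 5.6e-05 there, beside 1.5e-05 with all libraries. An adjusted p also depends on the other genes tested. Counts of all genes called in these fits are not given here, so whether the loss is particular to the members cannot be read from them. With an adipocyte score as a covariate, 1 member, Aldoc, was called.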

How the data were processed

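Per the submitters' processing notes, reads were trimmed with Trimmomatic 0.39 and quantified with Salmon 1.5.2, and MultiQC 1.9 was run. The estimated counts deposited by the authors are raw and may be fractional, because Salmon shares out reads that fit more than 1 transcript. The TPM values deposited by the authors are corrected for the effective length of each transcript, which the files also give. Libraries were stranded TruSeq, poly-A selected. Sex was taken from the sample titles.

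Estimated counts and TPM of 140789 transcripts were summed per symbol, and counts were rounded. In R 4.3.3, edgeR 4.0.16 (filterByExpr, TMM, glmQLFit, glmQLFTest, sex as the only term) was fitted to 18396 genes, with Benjamini-Hochberg adjustment and the study's threshold of 0.1. Each SE was derived from the F statistic of the same test. The study used DESeq2, which was an alternative here (1.42.0), as was limma-voom (limma 3.58.1). Shares were tested by exact two-sided permutation (scipy 1.17.1). The edgeR test was checked on simulated data. Depth was 49158283 to 69848769 estimated counts per library, and the spread between libraries is that between pools of 2 mice. No library was a copy of another (chi-square per degree of freedom within a sex 48.1 to 144.6).

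The members and lists were chosen with earlier results of these data known. The text names each of the 33 members and, of the other pathway lists, each gene called and up to 3 more by smallest p, and marker lists by their summed TPM and some of their leading genes; 1 marker is not reported here and was left out of its list. Other scalings, filters, a length offset, a replicate block, muscle and adipocyte scores and each library left out were tried as alternatives. Coordinates are from GENCODE M39 on GRCm39, the assembly the study names. Promoter letters are RefSeq's (table on GRCm38.p6), placed on GRCm39 by exact match.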

Additional observations from a re-analysis of the deposited data

How the results depend on the processing

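The counts of calls below come without the number of all genes called in the same fit. Whether a change is particular to these genes cannot be read from such counts. Members called higher in males numbered 4. They numbered 1 with the replicate number as a block, 1 with an adipocyte score as a covariate and 2 at an adjusted p under 0.05, and 0 to 4 with each library left out (0 without female 1 or male 3, 2 without female 2). Members called higher in females numbered 0, and 1 with library size alone, the DESeq2 Wald test, no filter, the length offset, the muscle covariate or protein-coding transcripts alone, and 0 to 2 with each library left out (2 without male 2, 1 without female 3). With the full set of libraries that 1 was Hif1a (adjusted p 0.0114 to 0.0939), except that with protein-coding transcripts alone it was Pfkfb4 (-0.90, adjusted p 0.0687). Without female 3 it was Pfkfb2 (-0.47, adjusted p 0.0873), and without male 2 the 2 were Hk3 (-0.95, adjusted p 0.0943) and Pfkfb4 (-0.61, adjusted p 0.0993). The muscle covariate added Pfkm, higher in males (0.71, adjusted p 0.0630), and lost Eno2 (0.127), Pdk2 (0.138) and, of the other pathway genes, Egln1 (0.195). Pdk2 was also lost with library size alone (0.111) and voom (0.107), and Eno2 with the length offset (0.108).

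Other pathway genes called higher in males numbered 2, against 4 with DESeq2 and with no filter, 0 with the block, the adipocyte covariate or an adjusted p under 0.05, and 0 to 5 with each library left out. Those called higher in females numbered 0, against 1 with DESeq2 size factors or the length offset, 3 with the DESeq2 Wald test, 2 with no filter and 0 to 3 with each library left out. Isozyme shares without overlap numbered 7, and 7 to 13 with each library left out. Transcript shares without overlap numbered 20, and 21 to 39 with each library left out. Fewer samples make a lack of overlap easier to reach.

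The replicate numbers do not pair the samples: same-numbered libraries had correlations of -0.039, -0.304 and -0.296 between their deviations, and no library correlated best with its own number. The replicate block lost Ldhb (adjusted p 0.146), Eno2 (0.147) and Pdk2 (0.204). Directions reversed for these members, none of them called in the fit reported: Hk2 with the length offset (0.56), Tpi1 with it (0.018), Aldoa with library size alone (-0.022), the muscle covariate (-0.087) and the adipocyte covariate (-0.068), Pgam1 with library size alone (-0.043), voom (-0.0090), the block (-0.0045), the muscle covariate (-0.22) and the adipocyte covariate (-0.045), and Pfkfb2 with the muscle covariate (0.11) and the adipocyte covariate (0.11). With each library left out, the log2 fold change crossed 0 for Pfkl (-0.41 to 0.15), Aldoa (-0.066 to 0.088), Tpi1 (-0.25 to 0.078), Pgam1 (-0.0998 to 0.15), Slc16a3 (-0.80 to 0.0075), Slc2a3 (-0.46 to 0.063), Pdk4 (-0.021 to 0.92) and Egln3 (-0.80 to 0.17). The cause was not tested.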
